A study of Mus musculus with 3 samples.

Results

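The metallothionein genes Mt1, Mt2 and Mt3 were followed across the cells of the mouse pituitary in 3 genotypes of the transcription factor Tpit. They were taken by gene symbol from the deposited table of raw counts and are 3 of its 55293 gene symbols. All 3 had counts in every genotype. The fourth gene of the family, Mt4, stood at 3, 5 and 15 counts in the whole WT, HT and KO libraries and is not described further.

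Metallothioneins are small, cysteine-rich proteins that bind zinc and copper and take part in the handling of these metals and of reactive oxygen. Mt1 and Mt2 are made in most tissues and are switched on by zinc through the transcription factor MTF1 and by glucocorticoids, the adrenal hormones that are driven by ACTH from pituitary corticotropes. Mt3, first described as a growth inhibitory factor, is found mostly in the nervous system and does not respond to metals in the way Mt1 and Mt2 do.

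The study sequenced single cells of dissociated pituitaries from mice labelled TpitWT, TpitHT and TpitKO, called WT, HT and KO here, with 1 library per genotype. Tpit is encoded by Tbx19, and it is needed for the identity of the corticotropes and melanotropes, the cells that make the hormone precursor Pomc. What HT stands for, how the Tpit allele was changed, and how many mice of which age and sex were pooled or not are not given in the labels. Dead cells had been sorted out with propidium iodide, and the cells were run on a droplet platform that reads the 3′ end of each transcript.

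The WT library held 11222 cells, the HT library 12839 and the KO library 13413, with means of 9561, 11869 and 9935 counts per cell. Tbx19 stood at 17.6, 12.4 and 0.690 CPM, the share of a library's or a cluster's counts scaled to a total of 1000000, and Pomc at 21846, 22576 and 58.3 CPM. Which part of Tbx19 was altered is not given, so its 3′ reads do not by themselves check the label. The authors had placed the cells in 21 clusters, of which KO lacked cluster 6 (corticotrope-like) and cluster 7 (melanotrope-like). Names with "like" come from marker genes. No name could be given to clusters 11, 12, 13, 16 and 17, which keep their numbers. Of 37359 barcode sequences, 115 (0.308%) occurred in more than 1 library. With 1 library per genotype no difference could be tested against the spread between animals. No p-value is given, and each interval is a 95% interval for counting error alone, which leaves out the variation between cells and between mice.

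The genes lie in a row on chromosome 8, on the plus strand of GRCm38, and are protein coding. Mt3 (ENSMUSG00000031760) spans chr8:94152607-94154146, Mt2 (ENSMUSG00000031762) chr8:94172664-94173568 and Mt1 (ENSMUSG00000031765) chr8:94179082-94180327. The antisense gene Gm45774 (chr8:94170748-94173412, minus strand) overlaps Mt2. Whether the authors' counting used the strand is not given in the sources used here, so reads of Mt2 and Gm45774 may not be fully told apart. The longest run shared by 2 of the members' transcripts was 20 bases, and the reads were 91 bases long.

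The upstream sequences are shown because the members differ, before the starts used here, in the letters that MTF1 is known to bind. Each is the 250 bases before the RefSeq transcription start (GRCm38.p6, plus strand, 5′ to 3′), at chr8:94178839-94179088 for Mt1, chr8:94172368-94172617 for Mt2 and chr8:94152357-94152606 for Mt3. Capitals mark the core of the metal response element, TGCACNC or TGCGCNC on either strand.
Mt1: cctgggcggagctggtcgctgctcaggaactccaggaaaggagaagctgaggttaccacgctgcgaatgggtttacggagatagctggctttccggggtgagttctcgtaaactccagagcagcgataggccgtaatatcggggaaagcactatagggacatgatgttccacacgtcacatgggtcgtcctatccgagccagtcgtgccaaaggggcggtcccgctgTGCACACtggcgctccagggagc
Mt2: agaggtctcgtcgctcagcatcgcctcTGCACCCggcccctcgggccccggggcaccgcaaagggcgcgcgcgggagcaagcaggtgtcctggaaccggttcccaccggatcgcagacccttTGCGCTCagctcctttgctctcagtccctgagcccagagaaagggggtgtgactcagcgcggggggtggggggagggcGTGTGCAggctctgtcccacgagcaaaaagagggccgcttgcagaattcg
Mt3: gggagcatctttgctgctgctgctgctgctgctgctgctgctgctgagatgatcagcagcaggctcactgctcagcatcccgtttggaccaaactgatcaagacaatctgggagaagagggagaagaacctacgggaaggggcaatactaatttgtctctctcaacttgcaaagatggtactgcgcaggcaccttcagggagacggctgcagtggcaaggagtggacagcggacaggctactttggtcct

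In the window of 300 bases that adds the first 50 bases after the start, Mt2 held 4 such cores, Mt1 held 3 and Mt3 held 1. At least 1 core was found in 25.7% of the 32851 promoters of the same length, at least 3 in 1.97% and at least 4 in 0.517%. The antioxidant response element core TGACNNNGC was found in the Mt2 window, at -79 to -71 from the start, and in 12.4% of all promoters. The palindromic glucocorticoid response element was in none of the 3 windows and in 0.00913% of all promoters. Both strands were searched, and a match describes these letters in this window and nothing about binding. Only 1 start per gene was used. Other annotated transcripts start further downstream, at 94179211 and 94179241 for Mt1, 94172860 for Mt2 and 94152746 for Mt3. The bases just before those starts lie outside the windows, so the counts of cores, and their order between the members, hold only for the starts used.

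Over all cells Mt1 was the most counted of the family. Its WT level was 624 CPM (620 to 629), its HT level 709 (704 to 713) and its KO level 449 (445 to 452). For Mt2 the WT library gave 99.9 CPM (98.0 to 102), the HT library 119 (117 to 121) and the KO library 50.1 (48.95 to 51.4). For Mt3 they gave 25.3 (24.4 to 26.3), 32.4 (31.5 to 33.3) and 31.3 CPM (30.3 to 32.2). Mt1 and Mt2 thus had the order KO, WT, HT from low to high, and their intervals did not overlap, while Mt3 was lowest in WT. The share of all genes with that order, or with intervals apart, was not computed. Per kilobase of annotated exon, the Mt1 level was 2.94 times that of Mt2 in WT and 21.1 times that of Mt3. The annotated exon length was 1245 bases for Mt1, about the whole span of the gene, and 585 bases for Mt2. Reads of a 3′ library need not grow with transcript length, and the plain count ratios were 6.25 and 24.7.

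The share of cells with at least 1 count followed the same order between the genes. In WT, HT and KO, Mt1 was found in 81.4%, 84.8% and 71.6% of cells, and Mt2 in 37.9%, 41.8% and 23.1%. Mt3 was counted in 15.9%, 20.9% and 17.5% of cells. In cluster 0 of WT, Mt1 averaged 2.99 counts per cell and was found in 69.8% of cells, against 94.95% for random placement. Whether the counts are molecules or reads is not given in the sources used here.

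**Figure D1:**
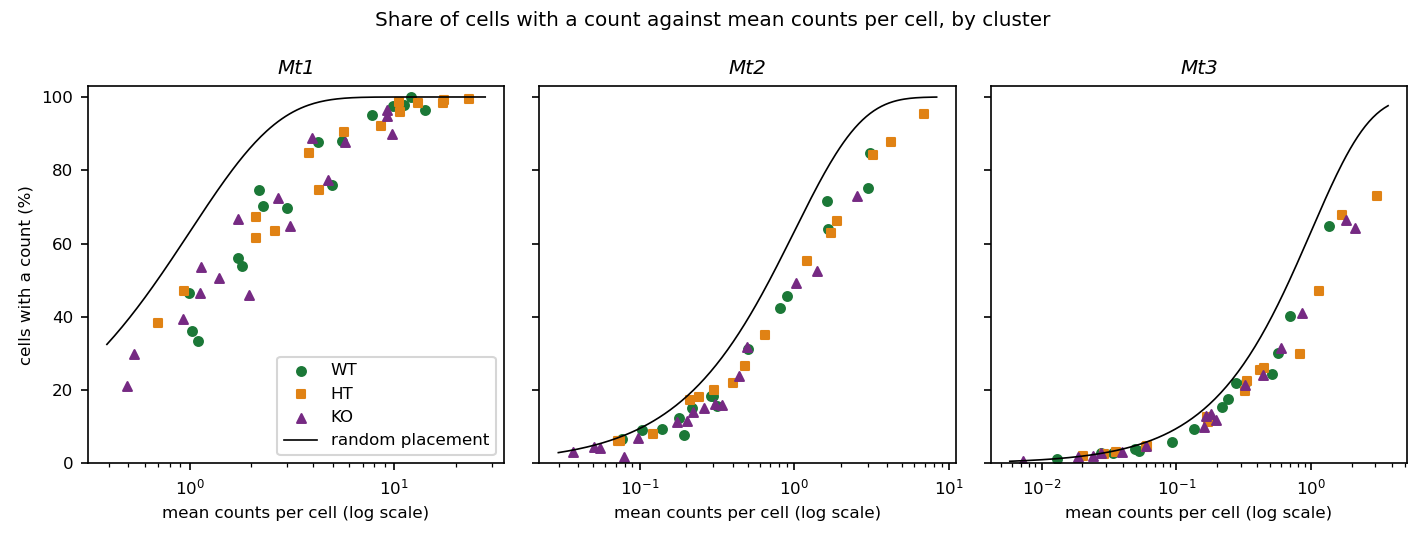
Share of cells with a count (vertical axis, percent) against the mean counts per cell of the gene (horizontal axis, log scale), 1 point for each cluster and genotype with at least 50 cells. The line gives the share that random placement of the counts would reach, and Mt1 lies below it in most clusters, such as 69.8% against 94.95% in cluster 0 of WT.

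Free RNA in the droplets limits how low levels can be read. Gh, the growth hormone gene of somatotropes, took 94501, 39604 and 26901 CPM of the endothelial-like cluster 9 in WT, HT and KO, which is 38.8%, 18.5% and 16.6% of its level in the whole library. If free RNA had the make-up of the library, it would give Mt1 a level of 242 CPM in the endothelial-like cells of WT, where 305 were measured, and Mt2 a level of 38.8, where 53.5 were measured. The share of cells with an Mt1 count there was 33.3%, 38.4% and 21.0% for the 3 genotypes, at means of 3610, 4343 and 4250 counts per cell. Mt3 was counted in 2.90%, 3.20% and 0.725% of these cells. Doublets would also carry Gh, so the estimate is an upper one. In the other clusters free RNA was set at the free counts per cell of cluster 9, which would make up 9.86% of the counts in cluster 2 of WT, but never above the share that the cluster's own Gh allows, such as 6.50% in lactotrope-like cluster 4 of WT.

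Across clusters with at least 50 cells, Mt1 ran over a 15.1-fold range in WT, Mt2 over 69.7-fold and Mt3 over 39.0-fold. The clusters come from the same cells, the genes used to build them are not given in the sources used here, and Mt2 was one of the 10 leading genes of cluster 6, so levels between clusters are a description.

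Mt1 was highest in 3 clusters. The stem cell-like cluster 10 (led by Rbpms, Mia and Lcn2) held 1997, 2584 and 1569 CPM in WT, HT and KO. Cluster 11, which is unnamed, held 1962, 2295 and 1337 CPM, and the corticotrope-like cluster 6 held 1907 in WT and 2510 in HT. In WT the intervals of these 3 overlapped from one to the next, and all lay far above cluster 13, the next in order, at 770 CPM. Then came gonadotrope-like cluster 3 (696 CPM), somatotrope-like cluster 2 (694) and melanotrope-like cluster 7 (664), again with overlapping intervals. The macrophage-like cluster 8 stood at 598 CPM in WT, which is far above the 151 CPM that free RNA would give it. Mt1 was lowest in WT and KO in lactotrope-like cluster 4, with 133, 170 and 100 CPM, of which free RNA would give 40.6, 33.8 and 17.2.

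The hormone messengers fill much of the counts of endocrine cells and lower every other CPM there. Gh alone took 680373 CPM of somatotrope-like cluster 1 in WT. With hormone and mitochondrial genes left out of the totals, Mt1 in that cluster went from 498 to 1684 CPM and from rank 9 to rank 4 of 16 in WT, and clusters 6, 10 and 11 stayed the first 3.

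Mt2 followed a like order with steeper steps. In WT and KO it was highest in stem cell-like cluster 10, which held 551, 631 and 435 CPM in WT, HT and KO. The corticotrope-like cluster 6 held 410 CPM in WT and 752 in HT, where it was the highest, and cluster 11 held 263, 423 and 194. Next came somatotrope-like cluster 2 in WT, at 116 CPM, and melanotrope-like cluster 7 in HT, at 166 CPM, where cluster 2 held 99.9. The thyrotrope-like cluster 14 was lowest in WT and KO, with 7.90, 19.1 and 4.84 CPM in WT, HT and KO, of which free RNA would give 6.45, 3.67 and 3.22. Macrophage-like cells, at rank 8 of 16 for Mt1 in WT, held 28.7 CPM of Mt2 in WT against 24.2 from free RNA.

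Mt3 had a different order. In WT and HT it was highest in thyrotrope-like cluster 14, the cells that make thyroid-stimulating hormone, at 140 CPM (116 to 167) for WT, 282 (240 to 329) for HT and 203 (182 to 226) for KO. Pituicyte-like cluster 18, glia of the neural lobe, held 267 CPM over 107 KO cells, and WT and HT had 9 and 2 cells there. Melanotrope-like cluster 7 held 83.5 CPM in WT and 148 in HT, cluster 11 held 82.5, 109 and 83.04, and gonadotrope-like cluster 3 held 51.1, 73.0 and 66.7. The somatotrope-like cluster 1 held 5.78, 5.54 and 4.83 CPM, of which free RNA would give 4.19, 2.42 and 2.69. Macrophage-like cells held 3.59, 6.74 and 5.16 CPM of Mt3, against 6.13, 5.21 and 2.73 from free RNA, with a count in 1.30%, 2.65% and 1.92% of cells. In thyrotrope-like cells Mt3 was counted in 64.8%, 73.1% and 64.3% of cells, where all genes averaged 9739, 11051 and 10526 counts per cell. In WT and KO this is the cluster in which Mt2 was lowest.

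**Figure D2:**
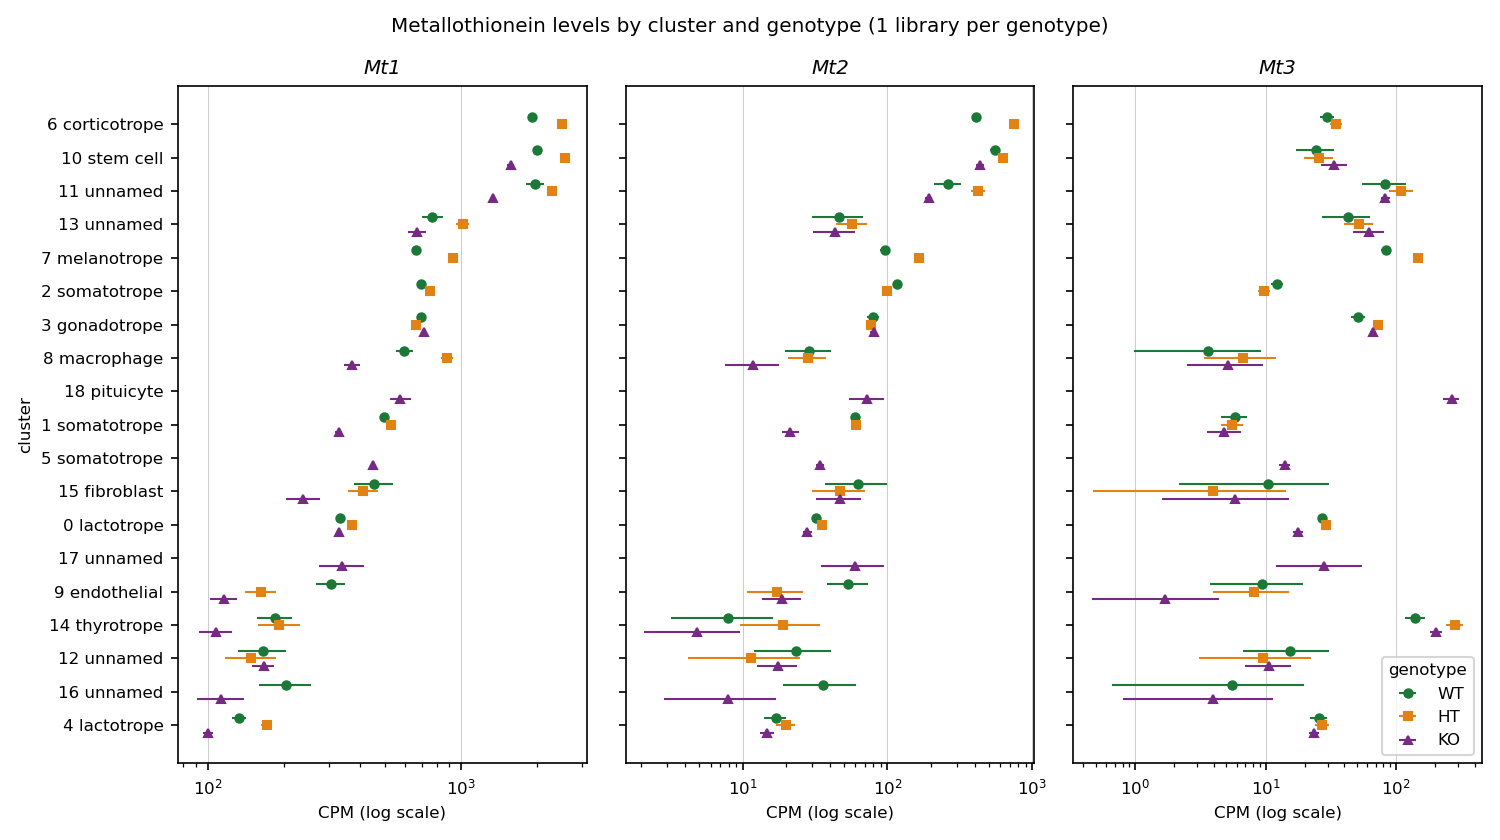
Level of each gene in CPM (log scale) by cluster, with WT as circles, HT as squares and KO as triangles, for combinations with at least 50 cells; bars are 95% intervals for counting error. Mt1 and Mt2 are highest in clusters 6, 10 and 11, whereas Mt3 is highest in thyrotrope-like cluster 14 in WT and HT (140 and 282 CPM) and, in KO, in pituicyte-like cluster 18 (267 CPM).

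The counts lay in few clusters. Cluster 2 held 30.6% of the Mt1 counts of WT in 18.5% of its cells, and cluster 6 held 22.7% in 9.63%. Of the Mt2 counts, cluster 2 held 32.0% and cluster 6 held 30.5% in WT, and cluster 6 held 39.8% in HT. In KO, which has no cluster 6 and 17 cells of cluster 2, gonadotrope-like cluster 3 held 25.6% of the Mt1 and 25.6% of the Mt2 counts. Most of the WT and HT counts of Mt2 thus came from clusters that KO lacks or nearly lacks.

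The first comparison asked how the metallothioneins stood without Tpit. Over all cells the ratio of KO to WT was 0.719 (0.711 to 0.727) for Mt1, 0.502 (0.487 to 0.518) for Mt2 and 1.24 (1.18 to 1.30) for Mt3. None of the 3 was past 2-fold, where 3.5% of the 25734 genes with at least 20 counts were lower and 7.68% higher by that much. These values mix levels with the make-up of the libraries. Over the 12 clusters that had at least 50 cells in every genotype, pooled, the log2 ratio of CPM plus 10 was 0.079 for Mt1 and 0.041 for Mt2, against -0.47 and -0.87 over all cells. With each of those clusters set to its WT share of cells the log2 ratios were -0.27 for Mt1, -0.41 for Mt2 and -0.11 for Mt3, the last against 0.22 over all cells. With the authors' scaled counts that of Mt3 was -0.053.

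Within clusters, Mt1 stood lower in KO than in WT in 11 of 13 clusters, and the interval lay below 1 in 10 of them. Among the 6958 genes counted widely enough, 2.69% were lower in at least 11 clusters. The share of genes with the interval below 1 in as many clusters was not computed. The median ratio of Mt1 over the clusters was 0.681, against 1.02 for the median gene, and 0.790% of genes had a median as low. It was past 2-fold lower in endothelial-like cluster 9, where WT had 305 CPM and KO 116 (0.379, 0.316 to 0.454), where 5.2% of all genes were as far lower; 23.9% of genes were so in at least 1 cluster. In that cluster 242 and 74.5 CPM could be free RNA. The ratio was 0.620 in macrophage-like, 0.528 in fibroblast-like, 0.582 in thyrotrope-like and 0.786 in stem cell-like cells. It was 0.681 in cluster 11 and 0.659 in somatotrope-like cluster 1. Gonadotrope-like cluster 3 (1.03, 0.990 to 1.07), cluster 12 (1.01) and lactotrope-like cluster 0 (0.998, 0.970 to 1.03) had intervals that included equal levels.

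Mt2 could be compared in 11 clusters and was lower in KO in 10, with the interval below 1 in 6. Of the genes counted in at least 11 of 13 clusters, 6.97% were lower in at least 10. Those genes could have up to 13 clusters, so the shares are not fully like for like. No share was computed for intervals below 1. Mt2 was past 2-fold lower in 3 clusters, as were 1.35% of genes. In somatotrope-like cluster 1 it was 59.7 CPM in WT and 21.4 in KO, a ratio of 0.358 (0.306 to 0.417), where 3.6% of genes were as far lower. In macrophage-like cluster 8 it was 28.7 and 11.9 CPM (32 and 23 counts), where 5.1% of genes were as far lower, and in endothelial-like cluster 9 it was 53.5 and 18.8 CPM (40 and 44 counts), where 5.2% were. Less free RNA, the ratio was 0.518 in cluster 9 and 1.37 in cluster 8, neither past 2-fold lower. In gonadotrope-like cells Mt2 stood at 79.7 and 80.1 CPM, a ratio of 1.01 (0.901 to 1.12).

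Free RNA bears on how many clusters can be read. After subtraction of the estimate above, Mt1 was lower in KO in 9 of 13 clusters in place of 11, and Mt2 in 7 of 11 in place of 10. Mt1 changed side in clusters 0 and 16, and Mt2 in clusters 4, 8 and 12. Without the limit set by each cluster's Gh, the counts would be 8 and 5. The share of all genes with so many clusters lower after subtraction was not computed. The shares given above therefore do not apply to these counts. With free RNA subtracted, Mt2 in somatotrope-like cluster 1 was 51.8 CPM in WT and 18.7 in KO (0.360), and Mt1 was 473 and 317 (0.670). In stem cell-like cluster 10 Mt1 was 2258 and 1745 CPM (0.773) and Mt2 was 636 and 496 (0.779). In macrophage-like cluster 8 Mt1 was 589 and 363 CPM (0.617), while Mt2 was 6.01 and 8.22. All clusters of a genotype share 1 library, so their directions are not independent of each other.

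The somatotrope-like cells hold many of the counts, and their clusters were split by genotype. Over clusters 1, 2 and 5 together, the Mt2 level was 98.1 CPM (95.2 to 101) for WT, 86.6 (84.1 to 89.1) for HT and 31.1 (29.5 to 32.9) for KO. The ratio of KO to WT was 0.317 (0.298 to 0.338), past 2-fold, as were 4.0% of the 18557 genes counted there. Mt1 in the same cells stood at 632, 680 and 420 CPM, a ratio of 0.664 (0.652 to 0.677), and Mt3 at 10.2, 8.37 and 11.8 CPM. For Mt2 the KO level lay far below those of WT and HT, whose intervals did not overlap each other. How many of all genes had intervals apart in these cells was not computed. The WT cells lay in clusters 1 and 2 and the KO cells in clusters 1 and 5, so a cell state and a genotype cannot be told apart between clusters 2 and 5. In cluster 1, which all 3 share, Mt2 stood at 59.7, 60.5 and 21.4 CPM, with a count in 31.3%, 35.0% and 11.2% of cells at means of 8466, 10741 and 8196 counts per cell. The 28 WT cells of cluster 5 held 724 CPM of Mt1 and 107 of Mt2, against 448 and 34.2 in its 2457 KO cells. The 17 KO cells of cluster 2 held 428 CPM of Mt1 and 24.04 of Mt2 (5 counts).

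The lactotrope-like cells differed less in Mt1 and Mt2. Over clusters 0 and 4 the ratio of KO to WT was 0.815 (0.794 to 0.836) for Mt1, 0.782 (0.719 to 0.851) for Mt2 and 0.752 (0.688 to 0.821) for Mt3. Cluster 4, led by Prl, made up more of the KO than of the WT lactotrope-like cells, with 1463 of 4619 cells against 592 of 3913, and is low in Mt1.

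Mt3 did not share this direction. It could be compared in 9 clusters and was lower in KO in 4 and higher in 5. Of the genes counted in at least 11 of 13 clusters 83.9% were lower in at least 4 and 80.1% higher in at least 5. Those genes had more clusters than Mt3, so the shares are not like for like. The median ratio of Mt3 over its clusters was 1.01, against 1.02 for the median gene, and 46.8% of genes had a median as low. Its interval lay below 1 in lactotrope-like cluster 0, with 27.03, 29.1 and 17.8 CPM in WT, HT and KO (0.659, 0.589 to 0.737). It lay above 1 in gonadotrope-like cluster 3 (1.31, 1.143 to 1.498) and in thyrotrope-like cluster 14 (1.45, 1.18 to 1.80). In cluster 14 the HT library stood highest and WT lowest.

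**Figure D3:**
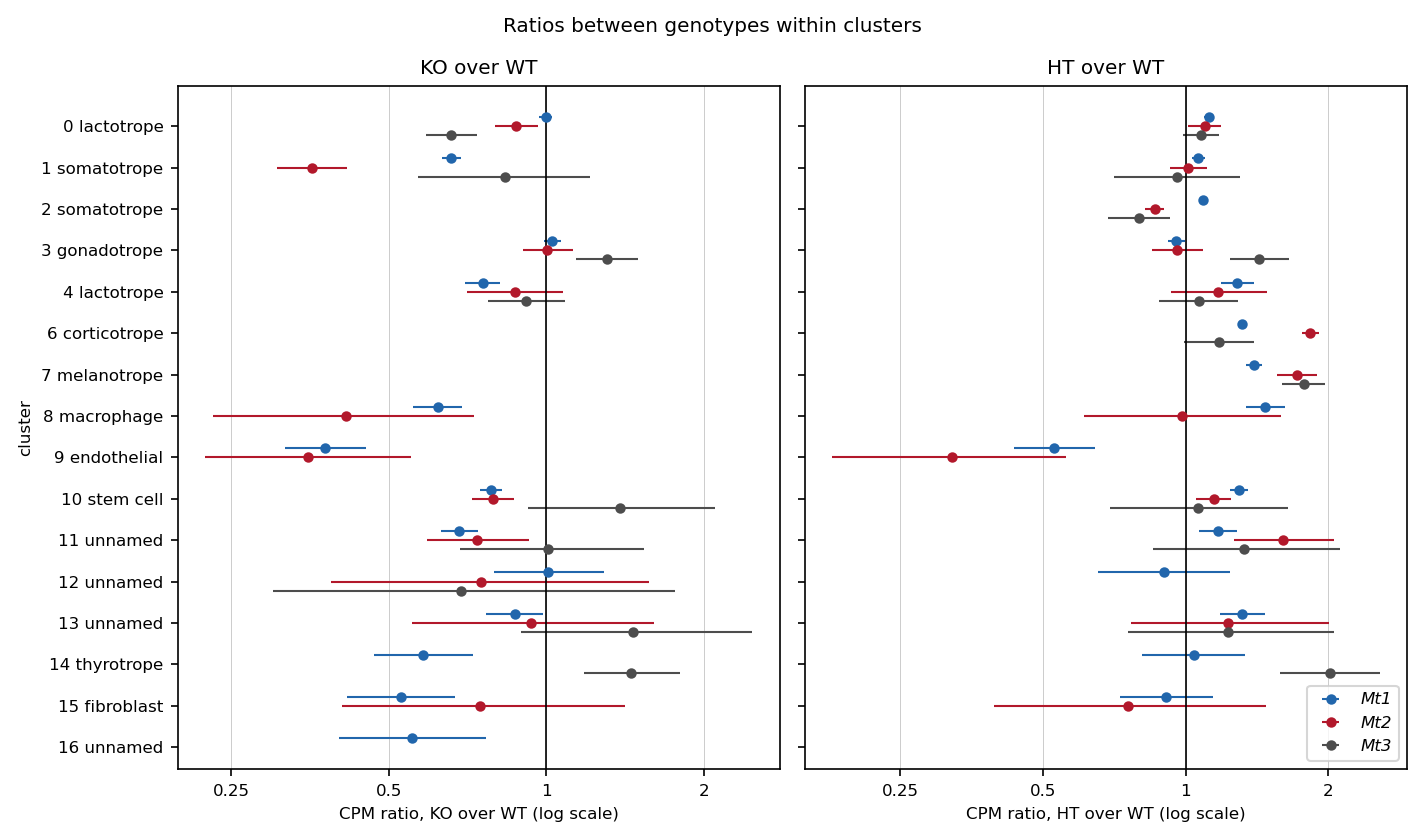
Ratio of CPM between genotypes within clusters (horizontal axis, log scale), KO over WT at left and HT over WT at right, with 95% intervals for counting error; the vertical line marks equal levels. At left Mt1 lies below 1 in 11 of 13 clusters and Mt2 lies at 0.358 in cluster 1, and at right corticotrope-like cluster 6 and melanotrope-like cluster 7 lie above 1 for all 3 genes, with the Mt3 interval of cluster 6 reaching below 1.

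The second comparison set HT beside WT, the only one that can be made in corticotrope-like cluster 6 and melanotrope-like cluster 7. It shares the WT library with the first. None of the 3 was past 2-fold over all cells, where 2.55% of genes were lower and 1.83% higher by that much, and HT stood 1.13 times WT for Mt1 (1.12 to 1.15), 1.19 times for Mt2 (1.16 to 1.22) and 1.28 times for Mt3 (1.22 to 1.34). In corticotrope-like cluster 6 the Mt2 level was 410 CPM for WT and 752 for HT, a ratio of 1.83 (1.76 to 1.91), with a count in 75.2% and 95.4% of cells at means of 7376 and 9256 counts per cell. Mt1 there had a ratio of 1.32 (1.29 to 1.34) and Mt3 of 1.18 (0.992 to 1.39). In melanotrope-like cluster 7 the ratios were 1.40 (1.34 to 1.45) for Mt1, 1.72 (1.56 to 1.90) for Mt2 and 1.78 (1.60 to 1.97) for Mt3. Less free RNA, the Mt2 ratio was 1.82 in cluster 6 and 1.75 in cluster 7. Tbx19 stood at 142 and 99.3 CPM in cluster 6 and at 106 and 97.6 in cluster 7 in WT and HT.

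Over the clusters, Mt1 was higher in HT than in WT in 11 of 15, where 11.4% of genes were, Mt2 in 8 of 13, where 35.7% were, and Mt3 in 9 of 11, where 25.1% were. The latter shares are not small, but they are of genes counted in at least 13 of 15 clusters. Mt2 was compared in 13 and Mt3 in only 11, so their counts and those shares are not like for like. The median ratio over the clusters was 1.12 for Mt1, 1.10 for Mt2 and 1.18 for Mt3, against 0.979 for the median gene. Of all genes 92.3%, 88.8% and 96.6% had a median as low or lower. Past 2-fold stood Mt2 in endothelial-like cluster 9, lower in HT at 17.2 CPM against 53.5 (0.321, 0.180 to 0.558; 4.72% of genes there were as far lower, and 24.8% in at least 1 cluster). Less free RNA, Mt2 in that cluster of HT came out below 0. Mt3 in thyrotrope-like cluster 14 was past 2-fold higher (2.01, 1.58 to 2.57; 4.98% of genes as far higher), over 52 HT and 91 WT cells, and less free RNA the ratio was 1.96. In somatotrope-like cluster 2 Mt2 had a ratio of 0.861 (0.821 to 0.902) and Mt1 of 1.09 (1.07 to 1.11).

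The third comparison set KO beside HT and shares a library with each of the others. Over all cells the ratio of KO to HT was 0.633 for Mt1, 0.421 for Mt2, past 2-fold, and 0.966 for Mt3, where 2.56% of genes were lower and 7.01% higher by that much. Mt1 was lower in KO in 10 of 12 clusters, where 5.3% of genes were, with a median ratio of 0.614 against 1.03 for the median gene. It was past 2-fold lower in macrophage-like cluster 8, with 881 CPM for HT and 371 for KO (0.421, 0.384 to 0.460; 3.47% of genes as far lower, and 18.6% in at least 1 cluster). Mt2 was lower in 8 of 11 clusters, where 18.8% of genes were, and past 2-fold lower in 3, where 0.7% were: cluster 1 (0.353, where 3.43% of genes were as far lower), cluster 8 (0.422, 3.47%) and cluster 11 (0.458, 4.62%). Less free RNA, these ratios were 0.334, 0.769 and 0.459, so that of cluster 8 was no longer past 2-fold. Mt3 was lower in 7 of 10 clusters, where 29.9% of the genes counted in at least 10 of 12 clusters were lower in at least 7. Those genes could have up to 12 clusters, so the shares set beside Mt2 and Mt3 are not fully like for like. The median ratio of Mt3 was 0.866, against 1.03 for the median gene, and 6.64% of genes had a median as low. Across the 12 clusters shared by all genotypes, Mt1 had the order KO, WT, HT from low to high in 8 and Mt2 in 7, whereas Mt3 had it in 2. The share of all genes with this order in as many clusters was not computed, so these counts have no background. They also had no minimum of counts, such as Mt2 in cluster 14 with 7, 11 and 8 counts in WT, HT and KO, and free RNA was not subtracted.

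Cluster 11 had the largest counts of Mt1 per cell among the cells of KO, at 9.72. Its cells numbered 53, 107 and 871 in WT, HT and KO, with Pomc at 19954, 33462 and 196 CPM and Tbx19 at 61.1, 76.2 and 13.6 CPM. Its Mt1 stood at 1962, 2295 and 1337 CPM and its Mt2 at 263, 423 and 194. The part of the Pomc difference between its cells in these values was not tested.

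The proportion of Mt1 to Mt2 varied between cell types and, in some of them, between genotypes. Over all cells the count ratio of Mt1 to Mt2 was 6.25 (6.13 to 6.38), 5.95 (5.85 to 6.04) and 8.95 (8.72 to 9.18) in the same order of genotypes. It was lowest in stem cell-like cluster 10, at 3.63, 4.09 and 3.605, and in corticotrope-like cluster 6, at 4.65 in WT and 3.34 in HT. It was high in macrophage-like cluster 8, at 20.8 (14.6 to 30.7), 31.3 and 31.2. Free RNA would give 24.2 of the 28.7 CPM of Mt2 there in WT. The ratio was 23.3, 10 and 22.1 in thyrotrope-like cluster 14, on 7, 11 and 8 counts of Mt2, and 16.7, 17.9 and 15.5 in cluster 13. In somatotrope-like cluster 1 it was 8.33 (7.75 to 8.96), 8.74 (8.21 to 9.31) and 15.4 (13.3 to 17.7) in WT, HT and KO. In cluster 5 of KO it was 13.1 (12.3 to 13.9). In gonadotrope-like cluster 3, by contrast, it was 8.74, 8.68 and 8.92, and over the lactotrope-like cells 10.1, 10.4 and 10.5, with overlapping intervals. In the somatotrope-like cells of KO, Mt2 thus stood further below its WT level than Mt1 did.

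**Figure D4:**
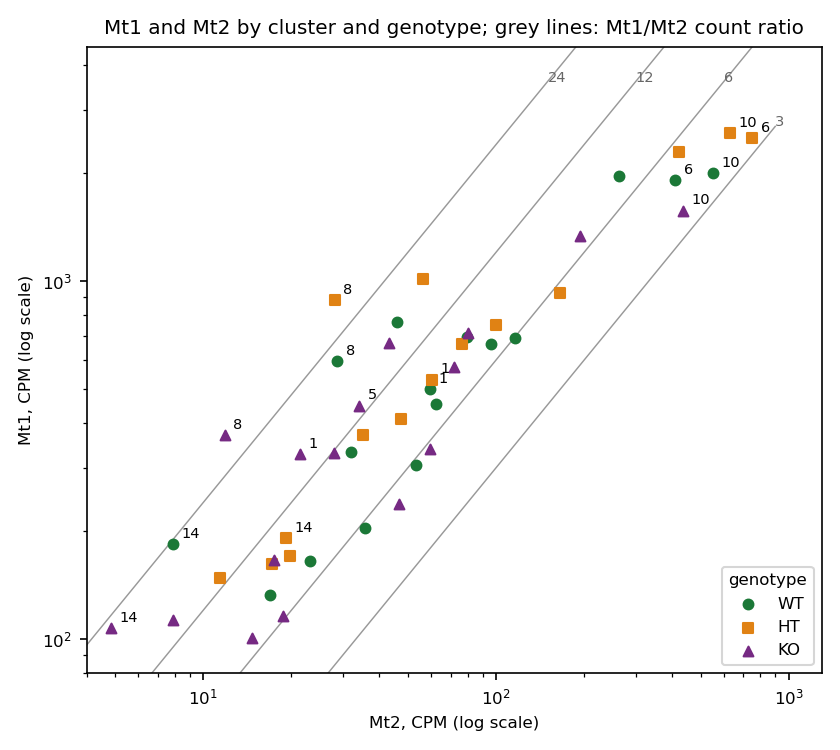
Mt1 level against Mt2 level, both in CPM on log scales, 1 point for each cluster and genotype with at least 50 cells; grey lines mark constant Mt1 to Mt2 count ratios and numbers name some clusters. Stem cell-like cluster 10 lies near the lowest line in all 3 genotypes (3.63, 4.09 and 3.605), macrophage-like cluster 8 above 20, and cluster 1 shifts from 8.33 in WT to 15.4 in KO.

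Likeness of pattern was measured as the Pearson correlation of log2(CPM + 10) over 47 combinations of cluster and genotype and 10861 genes, as a description. The combinations of a genotype share a library and its free RNA. For Mt1 the gene most like it was Mt2 (0.91), followed by the deubiquitinase gene Usp2 (0.82), Zbtb12 (0.77), the circadian repressor gene Bhlhe41 (0.76) and Ccdc8 (0.75). For Mt2, after Mt1, they were Plekhb1 (0.83), the desmosome gene Pkp2 (0.83), Mrln (0.81) and Calml4 (0.81). Mt3 was ranked 5150th for Mt1, with a correlation of 0.24, and 5589th for Mt2, with 0.22. The genes most like Mt3 were Tceal6 (0.83), the imprinted gene Snrpn (0.82), the pyrophosphatase gene Ppa1 (0.82), Slc22a17 (0.82) and Gm38393 (0.82).

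The protein-coding genes named next, around the family, had ratios nearer to 1 than those of Mt1, Mt2 and Mt3. Over all cells the ratio of KO to WT was 1.02 for Nudt21, 1.07 for Ogfod1, 1.05 for Bbs2, 1.06 for Nup93 and 0.990 for Herpud1, which are protein-coding genes that start within 250 kb of Mt1 and had at least 20 counts. The antisense gene Gm45774, named because it overlaps Mt2, stood at 4.16, 3.70 and 1.80 CPM in WT, HT and KO, a ratio of 0.433 (0.369 to 0.508) near that of Mt2.

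**Figure D5:**
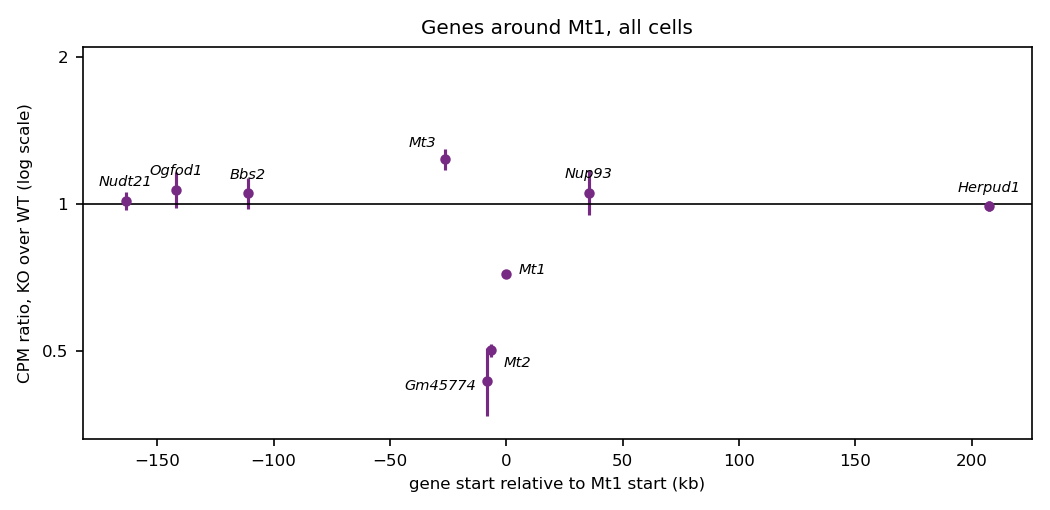
Ratio of KO to WT CPM over all cells (vertical axis, log scale, with 95% intervals for counting error) for the named genes around Mt1, by the distance of their start from that of Mt1 in kb. Mt1 (0.719), Mt2 (0.502) and the overlapping Gm45774 (0.433) lie below 1, Mt3 (1.24) above it, and the other genes shown between 0.990 and 1.07.

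Other genes of metal handling were set beside the members. Of 33 zinc and copper genes 29 reached 50 counts over both libraries, and 12 stood lower and 17 higher in KO, with a median log2 ratio of 0.01 against 0.02 for all genes, of which 37.8% were lower and 62.2% higher. Past 2-fold lower were 2, where 2.55% of all genes were. Slc39a14, which encodes the zinc importer ZIP14, stood at 26.7, 20.9 and 8.72 CPM in WT, HT and KO, a ratio of 0.327 (0.305 to 0.350), and Slc30a2, a zinc exporter gene, at 0.969, 0.663 and 0.465. Past 2-fold higher were 2 scarce transcripts, Slc30a8 at 0.0839 and 0.3302 CPM in WT and KO and Slc39a4 at 0.168 and 0.375, where 5.77% of all genes were. Slc39a14 lay mostly in somatotrope-like cells and was among the leading genes of clusters 1 and 2. In cluster 1 it had 50.1, 40.9 and 16.6 CPM in WT, HT and KO, beside an Mt2 of 59.7, 60.5 and 21.4. Over all cells Mtf1, the metal sensor that acts on Mt1 and Mt2, stood at 13.4, 12.6 and 13.97 CPM (KO over WT 1.04, 0.970 to 1.11). Its zinc-responsive target Slc30a1 stood at 5.09, 4.57 and 5.62 (1.10, 0.988 to 1.24). Over clusters 1, 2 and 5 together, Slc30a1 was higher in KO, opposite to Slc39a14 and Mt2. It had 2.998 CPM (2.51 to 3.56) in WT, 2.93 in HT and 5.37 (4.69 to 6.12) in KO. In cluster 1 alone, Slc30a1 had 2.02 CPM (1.34 to 2.92) in WT and 2.88 (1.91 to 4.16) in KO, with overlapping intervals. The part of zinc in the metallothionein levels was not tested.

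Of 14 glucocorticoid-induced genes 11 stood lower in KO than in WT and 5 were past 2-fold lower, with a median log2 ratio of -0.21. Over all genes 37.8% stood lower, 2.55% were past 2-fold lower, and the median was 0.02. The 5 were Errfi1 (70.8, 71.5 and 29.9 CPM in WT, HT and KO), Hif3a, Sult1a1, Fkbp5 (45.4, 48.7 and 21.1), the cochaperone gene of the glucocorticoid receptor, and Cdkn1a (23.6, 29.3 and 11.3). Sgk1 (6.46, 9.04 and 9.44), Dusp1 (376, 393 and 498) and Per1 (15.7, 16.9 and 16.7) stood higher in KO. In HT 13 of the 14 stood above WT, where 47.3% of all genes did, and the 1 below was Klf9 (127, 110 and 84.8 CPM). By cluster, the list's median ratio of KO to WT was 0.523 in macrophage-like, 0.664 in stem cell-like and 0.756 in somatotrope-like cluster 1, against 1.01, 1.01 and 1.15 for all genes. It was 0.789 in gonadotrope-like cluster 3, where Mt1 and Mt2 stood level, against 0.972 for all genes. In lactotrope-like cluster 4 it was 1.08, near the 1.09 of all genes, and in cluster 16 it was 1.66 against 1.27.

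Lists of other known inducers are read against all genes, of which 37.8% stood lower and 62.2% higher in KO than in WT. Of 10 Nrf2 target genes of the oxidative stress response, 5 were lower and 5 higher in KO, and the 1 past 2-fold was Srxn1 (86.5, 83.4 and 22.5 CPM). Srxn1 is a leading gene of cluster 6, which KO lacks, and the part of that cluster in the difference was not tested. Of 10 genes of the IL-6 and STAT3 response 5 were lower, among them Cebpd (411, 420 and 254 CPM), and 5 higher, with Timp1 (5.18, 6.27 and 11.4) and Osmr past 2-fold. The 9 genes listed for dissociation stress all stood above WT in KO (median log2 ratio 0.23), with Hspa1a at 75.2, 158 and 172 CPM and Fos at 2476, 2460 and 2868. Their part in the metallothionein levels was not tested.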

How the data were processed

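Single cells of whole mouse pituitaries were measured in 3 libraries, 1 per genotype. Cell Ranger 5, Seurat 3.1, DESeq2, mm10 and GRCm38 appear in the submitters' processing notes without the step that used each. The authors deposited raw counts per genotype and cluster, with cells per combination, the number of cells with a count (other), the fraction of such cells, and mean and scaled counts, recorded as signal, per the file headers. No counts per single cell were used, so doublets and depth were not treated beyond the authors' steps and means stand for medians.

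Rows with the same symbol were added (110 of 55403). Coordinates matched GENCODE M21 for 52837 of 53292 shared symbols. CPM, ratios and shares were computed with Python 3.11.15 and SciPy 1.17.1, with exact Poisson, conditional binomial and Clopper-Pearson intervals at 95%. They treat counts as independent and cover counting error only. Clusters were compared with at least 50 cells in both genotypes and genes with at least 20 counts, lists with at least 50. Log2 ratios used a pseudocount of 10 CPM. Genes were named by rule: the 3 members, the 5 most alike to each, protein-coding neighbours within 250 kb (1 is not reported here), and list genes past 2-fold or known regulators. The members and lists were chosen with earlier results of these data known. Free RNA was estimated from Gh, as a share no larger than each cluster's own Gh allows, and both this step and the rule that names clusters from markers were chosen after the data were seen. Interval and ratio code was tested on simulated data. Promoters are from RefSeq, GRCm38.p6, and all 3 members matched by symbol.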

Additional observations from a re-analysis of the deposited data

Results flagged for a closer look

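The ratio of KO to WT for Mt3 went opposite ways in different cells, 0.659 in lactotrope-like cluster 0 and 1.45 in thyrotrope-like cluster 14. The difference between the clusters was not tested, since each genotype had 1 library.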

How the results depend on the processing

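No paired analysis was possible because there was 1 library for each genotype, and for the same reason no replicate could be left out. Values are log2 ratios of CPM plus 10 over all cells, for Mt1, Mt2 and Mt3. For KO over WT they were -0.47, -0.87 and 0.22. They became -0.54 and -0.97 (Mt1, Mt2) without hormone and mitochondrial genes, -0.59 (Mt1) and -0.053 (Mt3) with the authors' scaled counts, -0.42, -0.94 and 0.36 as mean counts per cell, -0.27, -0.41 and -0.11 with clusters at their WT share, and 0.079, 0.041 and 0.36 in clusters with at least 50 cells in every genotype. A pseudocount of 1 CPM gave -0.98 for Mt2. For HT over WT, 0.18, 0.23 and 0.26 became 0.12 and 0.19 (Mt1, Mt2) without those genes, 0.24, 0.39 and 0.19 as scaled counts, 0.49, 0.57 and 0.67 per cell, 0.093 (Mt2) and 0.18 (Mt3) at WT shares, 0.21 and 0.15 (Mt1, Mt2) in the shared clusters, and 0.34 for Mt3 with the lower pseudocount. For KO over HT, -0.65, -1.10 and -0.04 became -0.66 and -1.16 without those genes, -0.83, -1.21 and -0.25 as scaled counts, -0.92, -1.51 and -0.31 per cell, -0.45, -0.50 and -0.30 at WT shares, -0.13, -0.11 and 0.16 in the shared clusters, and -1.23 for Mt2 with the lower pseudocount. Apart from the shared clusters, which leave out clusters 2, 5, 6 and 7 among others, the cause of these shifts was not tested.

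Counts of clusters past 2-fold moved as follows. Mt1 lower in KO than in WT went from 1 to 2 without hormone and mitochondrial genes, with scaled counts and per cell, and Mt2 from 3 to 1 with at least 100 counts. For HT over WT, Mt1 lower went from 0 to 1 without those genes and with scaled counts, Mt2 lower from 1 to 0 with at least 100 counts, Mt2 higher from 0 to 2 per cell, and Mt3 higher from 1 to 0 without those genes, with scaled counts and with a pseudocount of 10 CPM (added after seeing the data), to 3 per cell and to 2 with clusters of at least 20 cells. For KO over HT, Mt1 lower went from 1 to 2 per cell and to 3 with at least 20 cells, Mt2 higher from 0 to 1 and Mt3 lower from 0 to 1 with at least 20 cells, and Mt3 lower to 1 per cell. Less free RNA, a setting chosen after seeing the data, the log2 ratio of Mt2 in cluster 8, KO over WT, was 0.19, and the count of clusters lower in HT than in WT went from 2 to 1 for Mt3. Without the limit set by Gh, that of Mt3 was also 1, and Mt2 was lower in KO than in WT in 5 clusters in place of 10. Of the 5 genes most like each member, combinations of WT alone shared 2, 1 and 0, those of KO alone 2, 1 and 0, and Spearman's correlation 3 for Mt2. The glucocorticoid list's median became -0.53 with a pseudocount of 1 CPM. Depth limits Mt2 and Mt3 in small clusters.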
